A study of Rattus norvegicus with 9 samples.

Results

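Extended reference transcripts were annotated rat transcripts that the assembler had lengthened at an end beyond the annotated model, and that carried the suffix _ext in the deposited isoform tables. Of 39492 reference transcripts, 17290 had an extended row in any library, and the 7342 that had one in at least 1 library of each of the 3 groups were described here. These 7342 transcripts lay at 5828 loci, where a locus was a set of transcripts that shared a gene in at least 5 libraries. A further 4085 were extended in 2 groups and 5863 in 1 group. The members were chosen by the presence of an extended row in these same libraries, so that presence was described and not tested.

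The 9 libraries came from Sprague-Dawley rats. The 3 fetal libraries were made from ventricles of litters at embryonic day 18, each labelled as a litter. The left ventricle of adults gave the other 6 libraries, 3 labelled TAC (transverse aortic constriction, which narrows the aorta and loads the heart with pressure) and 3 labelled sham, operated on without the constriction. RNA was isolated with Trizol in the fetal group and with a Qiagen fibrous tissue kit in both adult groups, so that stage, chamber sampled and isolation method cannot be told apart in a comparison of fetal with adult. Adult age and time after surgery are not known from the labels. These labels did not say whether numbered samples were separate animals, and p-values measure only the spread between these libraries.

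The start of a messenger RNA is set by where RNA polymerase begins, which depends on the core promoter, and many genes use more than one start in different tissues or stages. A longer first exon changes the 5′ untranslated region, which can alter translation without changing the protein. Annotated gene models built from protein evidence often lack the full untranslated ends, and an assembly from reads can add them.

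To show DNA at a RefSeq start of these genes, the 250 bases upstream of it are given for 7 members. These are the 6 members with a symbol that passed the test of added length between fetal and adult, and Bag5, which passed it between TAC and sham. The windows were found by gene symbol. Their place relative to the annotated and extended starts on rn4 was not mapped, so they may lie at another start or inside an added stretch. The sequences are from RefSeq on GRCr8, each written 5′ to 3′ on the gene's own strand, and 3886 members matched RefSeq by symbol or synonym. Capitals mark matches on both strands to the TATA box (TATAAA), the CCAAT box (its letters are its name), the GC box (GGGCGG) and the M-CAT element of muscle genes (CATTCC), and no marked match overlapped another.
Spr: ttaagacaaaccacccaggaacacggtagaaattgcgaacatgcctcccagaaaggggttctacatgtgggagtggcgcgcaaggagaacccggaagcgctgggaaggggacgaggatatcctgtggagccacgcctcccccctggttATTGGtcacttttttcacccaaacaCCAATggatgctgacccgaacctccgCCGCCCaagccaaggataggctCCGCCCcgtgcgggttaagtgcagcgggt
Nedd8: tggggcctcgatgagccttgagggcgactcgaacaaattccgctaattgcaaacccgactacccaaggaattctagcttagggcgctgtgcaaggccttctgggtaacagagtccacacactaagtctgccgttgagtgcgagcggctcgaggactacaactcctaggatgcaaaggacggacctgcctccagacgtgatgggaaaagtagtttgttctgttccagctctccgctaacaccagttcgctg
Exosc7: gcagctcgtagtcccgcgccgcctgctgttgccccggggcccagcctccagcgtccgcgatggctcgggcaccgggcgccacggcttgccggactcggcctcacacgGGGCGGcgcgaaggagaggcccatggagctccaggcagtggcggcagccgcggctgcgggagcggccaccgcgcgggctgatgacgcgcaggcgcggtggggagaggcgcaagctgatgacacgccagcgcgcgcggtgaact
Lrrc57: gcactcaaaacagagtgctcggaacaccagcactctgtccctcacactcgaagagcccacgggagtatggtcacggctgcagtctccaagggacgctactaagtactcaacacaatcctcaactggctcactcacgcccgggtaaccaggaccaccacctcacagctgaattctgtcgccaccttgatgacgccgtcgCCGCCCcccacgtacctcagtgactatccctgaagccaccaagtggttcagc
Ucp2: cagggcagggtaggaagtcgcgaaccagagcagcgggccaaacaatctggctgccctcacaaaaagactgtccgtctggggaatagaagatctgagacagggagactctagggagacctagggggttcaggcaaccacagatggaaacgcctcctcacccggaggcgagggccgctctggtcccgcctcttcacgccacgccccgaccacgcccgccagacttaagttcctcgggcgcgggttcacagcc
Scn4b: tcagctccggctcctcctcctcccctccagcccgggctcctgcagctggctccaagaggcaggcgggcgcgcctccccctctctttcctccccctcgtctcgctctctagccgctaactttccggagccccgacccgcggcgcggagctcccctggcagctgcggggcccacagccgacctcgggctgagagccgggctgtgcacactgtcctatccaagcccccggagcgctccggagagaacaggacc
Bag5: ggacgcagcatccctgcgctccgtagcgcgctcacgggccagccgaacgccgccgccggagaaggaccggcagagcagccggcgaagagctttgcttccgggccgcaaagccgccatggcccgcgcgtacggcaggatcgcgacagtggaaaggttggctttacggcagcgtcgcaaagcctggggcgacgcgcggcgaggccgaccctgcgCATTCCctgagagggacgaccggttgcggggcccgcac
The intervals were chr4:119233180-119233429 on the minus strand for Spr, chr15:33135523-33135772 minus for Nedd8, chr8:131650813-131651062 plus for Exosc7, chr3:128007005-128007254 minus for Lrrc57, chr1:164251123-164251372 plus for Ucp2, chr8:54343623-54343872 plus for Scn4b and chr6:136593279-136593528 minus for Bag5. Spr held 2 matches to CCAAT and 2 to GGGCGG, Exosc7 and Lrrc57 held 1 GGGCGG each, and Bag5 held 1 CATTCC. Nedd8, Ucp2 and Scn4b held none of the 4 in this window. None of the 7 windows held TATAAA. Over 2611 RefSeq promoters of members, GGGCGG was present in 60.2%, against 32.4% of all 27457 RefSeq promoters of this length. TATAAA was present in 6.70% of the members' promoters and in 13.1% of all, CCAAT in 36.7% and 34.3%, and CATTCC in 9.65% and 11.8%. The members' promoters held a median of 17 CG pairs, against 6 over all. All promoters include those of genes with no signal in heart, and the part of expression in these differences was not tested.

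The extension lay at one end of the transcript. In 33586 extended rows of members with an unextended row in another library, 0 rows were lengthened at both ends, and 0 were shorter than the reference at either end. The genomic span added equalled the transcript length added in every one of these rows, so the added sequence held no intron. In 122 rows the added length was 0. No library held both an extended and an unextended row of the same transcript.

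The end that moved was nearly always the 5′ end, where direction could be set. The deposited tables gave no strand, so it was inferred for 2439 members from the RefSeq strand on GRCr8 where the gene and its neighbours on both sides kept their order. Of these, 2424 (99.4%) were lengthened at the 5′ end and 15 at the 3′ end. On the rn4 chromosomes the moving end was the left one in 3573 members and the right one in 3684, and in 85 no end moved. Direction was not inferred for the other members. The assembler gives the suffix, and the part of its own rules in the end that moved, the single side and the lack of introns was not tested.

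Members were extended in 3 to 9 libraries. There were 437 members extended in 3 libraries, the least the rule allows, and 1664 extended in all 9. Just inside the rule, the 437 had a median added length of 40.5 nt per extended row, and the 4085 transcripts extended in only 2 groups, just outside it, had 42 nt. Median locus expression was 12.3 in the first set and 11.5 in the second, in rescaled FPKM. The 1160 members extended in 8 libraries had 57 nt.

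Member loci were more highly expressed than other loci. Their median mean value was 22.2 rescaled FPKM, against 0.350 over the other 19266 loci. Reference length was known for the 5665 members with an unextended row and had a median of 1810 nt, against 953 nt for the 22202 transcripts never extended. The reference length was a multiple of 3 in 40.7% of these members and in 50.0% of never-extended transcripts. Members with a length that is a multiple of 3 had a median added length of 51 nt, and those without had 48 nt. The part of expression in these descriptions was not tested.

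Extensions were found to reach into a neighbouring locus in 775 of 7257 members with a moving end (10.7%). These had a median added length of 79 nt, where an unextended row allowed it (564 members), against 47 nt for the 5101 members where no overlap was found. Only neighbouring loci with an unextended row in some library were searched. For members without an unextended row, only the stretch between their shortest and longest extended ends was searched. Overlaps can therefore be missed, and the share may be too low. The library kit named in the labels does not keep strand, so reads of a neighbour on the other strand cannot be told apart from reads of the extended transcript. Members of one locus often shared an end, with 978 of 1141 loci with at least 2 members having a pair whose extended end was identical in every shared library. Such members are not independent.

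Depth differed between the libraries. In units of 1000000 fragments, the deposited values and their bounds implied depths of 16.1 to 23.8 in the fetal libraries, 6.32 to 11.5 in TAC and 11.99 to 20.8 in sham. Members with an extended row numbered 5493 to 5766 in fetal, 4073 to 5891 in TAC and 4986 to 5998 in sham, and were fewest in the replicate 1 adult libraries. Replicate 1 libraries held rows as short as 43 nt, whereas the other 6 held none under 63 nt. Among marker genes with a symbol, summed cardiomyocyte markers lay between 16574 and 137936 in fetal and between 42615 and 50529 over both adult groups. Only 4 of the 12 listed were measured (Actc1, Mb, Myom2 and Nppa). The highest fetal sum was set by Actc1 in fetal replicate 2. Macrophage markers lay between 48.1 and 56.0 in fetal and between 253 and 428 in the adults, and erythroid markers between 16983 and 27070 and between 4943 and 11183.

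Added length was short in most members and had a long upper tail. It had a median of 54, 63 and 59 nt in the fetal libraries, 39, 44 and 47 nt in TAC and 44, 47 and 52 nt in sham. All 3 fetal medians were above all 6 adult medians. The fetal libraries were also deeper than most adult ones, and the part of depth in these medians was not tested. Between 32.4% and 38.1% of fetal rows added more than 100 nt, against 24.5% to 33.3% of adult rows. More than 1000 nt were added in 1.79% to 2.46% of fetal rows and in 0.367% to 1.48% of adult rows.

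**Figure D1:**
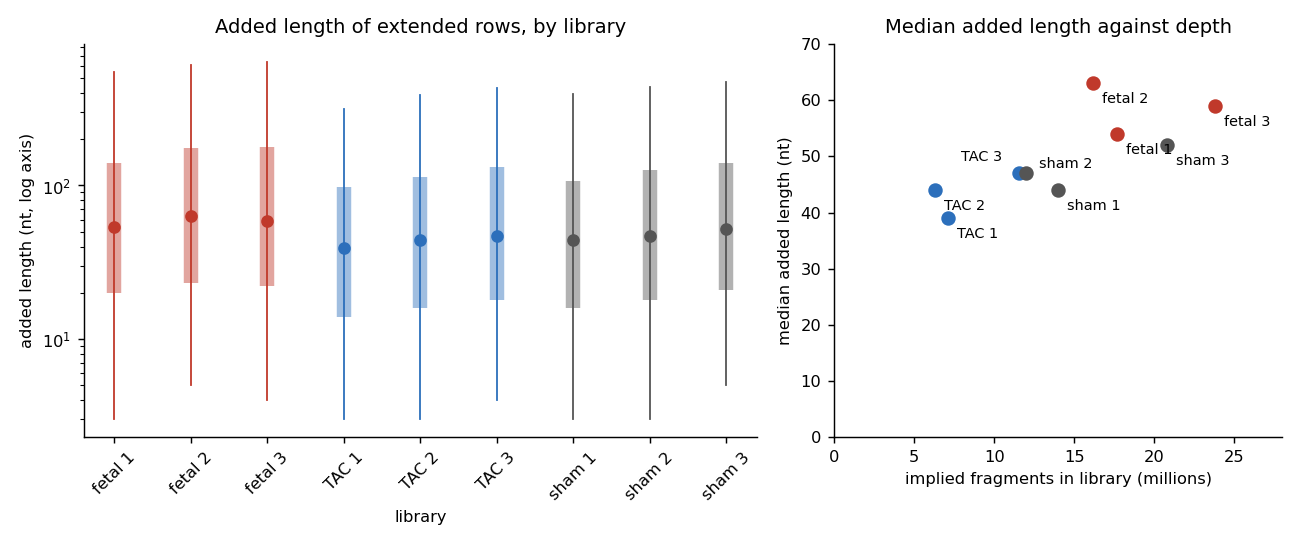
Left, added length (nt, log axis) of extended rows of members in each library; points are medians, thick bars run between the quartiles and thin lines between the 5th and 95th percentiles. Right, the same medians against implied fragments (in units of 1000000); the fetal medians of 54 to 63 nt lie above the adult medians of 39 to 52 nt, and the fetal libraries are among the 4 deepest.

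The extended end differed between libraries by medians of 17 to 20 nt over the kinds of library pair. The median added length itself was only 50 nt per extended row, where an unextended row allowed it. Between 2 fetal libraries the end differed by a median of 19 nt (the middle of 3 library pairs), between 2 TAC libraries by 18 nt and between 2 sham libraries by 17 nt. It lay within 10 nt in 37.5%, 37.8% and 39.0% of shared members. Between fetal and sham libraries the median distance was 20 nt and 36.1% lay within 10 nt. Ends more than 200 nt apart made up 10.9% of members between fetal libraries, 6.70% between sham libraries and 11.2% between fetal and sham libraries. The median distance between fetal libraries was thus close to that between fetal and sham libraries.

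The comparison of fetal with adult asked whether the fetal ventricle extends transcripts further. Added length could be compared in 2304 members that had at least 2 extended libraries in each of the 3 groups and an unextended row, and the adult value was the mean of TAC and sham. The median over members was 72.8 nt in fetal and 56.6 nt in adult, a median log2 difference of 0.22 on the log2(nt + 1) scale. The fetal mean was the longer in 1421 members, the shorter in 813 and equal in 70. In limma's moderated test with Benjamini-Hochberg adjustment, 7 members were longer (0.304% of the transcripts tested) and 1 shorter (0.0434%) in fetal. These 8 are 0.347% of the 2304 transcripts tested, which were all members, and at an unadjusted p under 0.05 there were 247. Every extended fetal library lay above every extended adult library in 210 of the 2304 members and below in 48. With 2 or 3 extended libraries in a group such separation can arise without a difference, and the number so expected was not computed.

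The 8 calls rest on 2 conditions that need stating with them. A library without an extended row holds the reference length and was treated as missing. When it was instead counted as 0 added nt, none of 5663 members was called in limma (282 at an unadjusted p under 0.05). With the replicate number as a block, none of 2304 was called (250 unadjusted), and adjusted p for these 8 ranged up to 0.155. Replicates of a number moved together in locus expression (correlations of 0.16 to 0.52 over 9 pairs). Pairs of unlike number ran from -0.41 to 0.28 (18 pairs). Among these, pairs of a replicate 2 with a replicate 3 had 0.11 to 0.28, and same-numbered pairs of replicates 2 or 3 had 0.16 to 0.27. The numbers thus mainly set replicate 1 apart, and a pairing of replicates 2 and 3 by number is not shown.

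**Figure D2:**
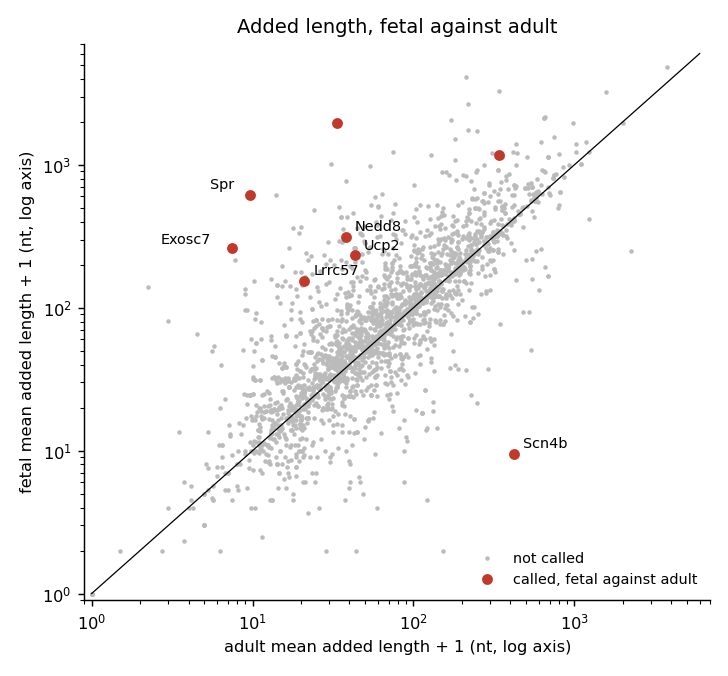
Mean added length + 1 (nt, log axes) in fetal libraries against adult libraries for the 2304 members tested; the line marks equal length and red points are the 8 called members, with symbols where they have one. Of the called members, 7 lie above the line and Scn4b below it.

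Spr encodes sepiapterin reductase, which completes the synthesis of tetrahydrobiopterin, the cofactor of nitric oxide synthases. Its transcript lies at chr4:119365579-119369308 on rn4, is 1201 nt long and was lengthened at the 5′ end. In fetal libraries 616, 616 and 617 nt were added. TAC replicate 1 held the unextended form, TAC replicates 2 and 3 added 7 and 5 nt, and sham libraries added 8, 5 and 21 nt. The fetal ends lay within 1 nt of each other and far beyond every adult end. The log2 difference was 6.17 (SE 0.44, limma adjusted p = 0.00518), and the adjusted p was 0.0676 with the replicate block. Locus expression fell in the fetal group, from 39.4, 40.7 and 46.0 rescaled FPKM in sham to 20.3, 24.7 and 19.0 (log2 change -0.95, SE 0.15, limma adjusted p = 0.0013).

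Nedd8 encodes a ubiquitin-like protein that activates cullin ligases. The transcript at chr15:33797457-33820624, of 770 nt, gained 312, 313 and 314 nt at its 5′ end in fetal libraries. It gained 24 and 25 nt in TAC replicates 2 and 3 and 50 and 49 nt in sham replicates 2 and 3, and was unextended in replicate 1 of both adult groups. The 3 fetal values lay above all adult ones, and among the extended adult libraries those of sham lay above those of TAC. The log2 difference of fetal from adult was 3.13 (SE 0.10, limma adjusted p = 0.0019), and 0.0676 was the adjusted p with the replicate block. The added stretch overlapped a neighbouring locus without a symbol. The locus value was 216, 233 and 194 in fetal and 169, 218 and 135 rescaled FPKM in sham, a difference that did not pass (limma adjusted p = 0.171).

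Exosc7 encodes a core subunit of the RNA exosome, the complex that degrades and trims RNA from its 3′ end. The 1017 nt transcript at chr8:127868051-127893391 gained 256, 263 and 263 nt at its 5′ end in fetal. TAC replicates 2 and 3 gained 5 and 11 nt, sham replicates 1 and 3 gained 2 and 8 nt, and the remaining adult libraries were unextended. All fetal ends lay beyond the adult ones, with no other locus found in the added stretch. The log2 difference was 5.30 (SE 0.48, limma adjusted p = 0.0345), and it was 0.155 with the replicate block. Without fetal replicate 1, 2 or 3 the adjusted p lay between 0.112 and 0.136.

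Lrrc57 encodes a leucine-rich repeat protein. Its 1940 nt transcript at chr3:107365963-107371662 gained 184 and 123 nt at the 5′ end in fetal replicates 1 and 2, was unextended in fetal replicate 3, and gained exactly 20 nt in all 6 adult libraries. The fetal value therefore rests on 2 libraries, and the third goes the other way. The log2 difference was 2.85 (SE 0.20, limma adjusted p = 0.00518; 0.0676 with the replicate block). Few reads stood behind it. Implied fragments of the transcript, extended or not, averaged 69.3 per library in fetal, 1.65 in TAC and 10.3 in sham. The added stretch overlapped a neighbouring locus.

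Ucp2 encodes a mitochondrial carrier known as uncoupling protein 2. The 1570 nt transcript at chr1:157922179-157928518 gained 39, 44 and 42 nt in TAC and 44, 43 and 42 nt in sham at its 5′ end. Fetal replicates 2 and 3 gained 294 and 169 nt and fetal replicate 1 was unextended. The 6 adult values lay between 39 and 44 nt, while the fetal ends were spread from no extension to the longest. The log2 difference was 2.37 (SE 0.22, limma adjusted p = 0.0154). It was 0.111 with the replicate block, and 0.0595 without sham replicate 3, and counting the unextended fetal library as 0 turned the direction (log2 difference -0.23). Locus expression fell from 477, 410 and 545 rescaled FPKM in sham to 203, 167 and 210 in fetal (log2 change -1.30, SE 0.18, limma adjusted p = 0.000517).

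Scn4b was the member called as shorter in fetal. It encodes an auxiliary beta subunit of the cardiac sodium channel. The 4272 nt transcript at chr8:48091561-48106735 gained 264, 459 and 481 nt at the 5′ end in TAC and 413, 413 and 479 nt in sham, and only 12 and 5 nt in fetal replicates 1 and 2, with none in replicate 3. Adult and fetal libraries did not overlap. The log2 difference was -5.54 (SE 0.36, limma adjusted p = 0.00518; 0.0676 with the replicate block). Reads were also far fewer in fetal. Implied fragments of the transcript, extended or not, averaged 61.3 per library, against 1926 in TAC and 3107 in sham. The part of depth in the shorter end was not tested. The locus fell from 57.5, 95.2 and 57.6 rescaled FPKM in sham to 1.48, 1.53 and 0.908 in fetal (log2 change -4.92, SE 0.23, limma adjusted p = 3.46e-06).

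The remaining called members had no symbol and are named because they complete the 8. ENSRNOT00000026641, at chr10:15057680-15059538 and 861 nt long, gained 1806, 2162 and 1953 nt in fetal, 24 and 6 nt in TAC replicates 1 and 3, and 30, 84 and 36 nt in sham. Its adult and fetal forms thus differed by more than the length of the annotated transcript. The log2 difference was 6.32 (SE 0.52, limma adjusted p = 0.00856; 0.0676 with the replicate block), from a mean of only 17.8 implied fragments in fetal. ENSRNOT00000020673, at chr9:74761012-74780292 and 5531 nt long, gained 1243, 1255 and 997 nt in fetal, 369 and 288 nt in TAC replicates 2 and 3, and 309, 363 and 361 nt in sham (log2 difference 1.79, SE 0.13, limma adjusted p = 0.00591; 0.0676 with the replicate block).

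**Figure D3:**
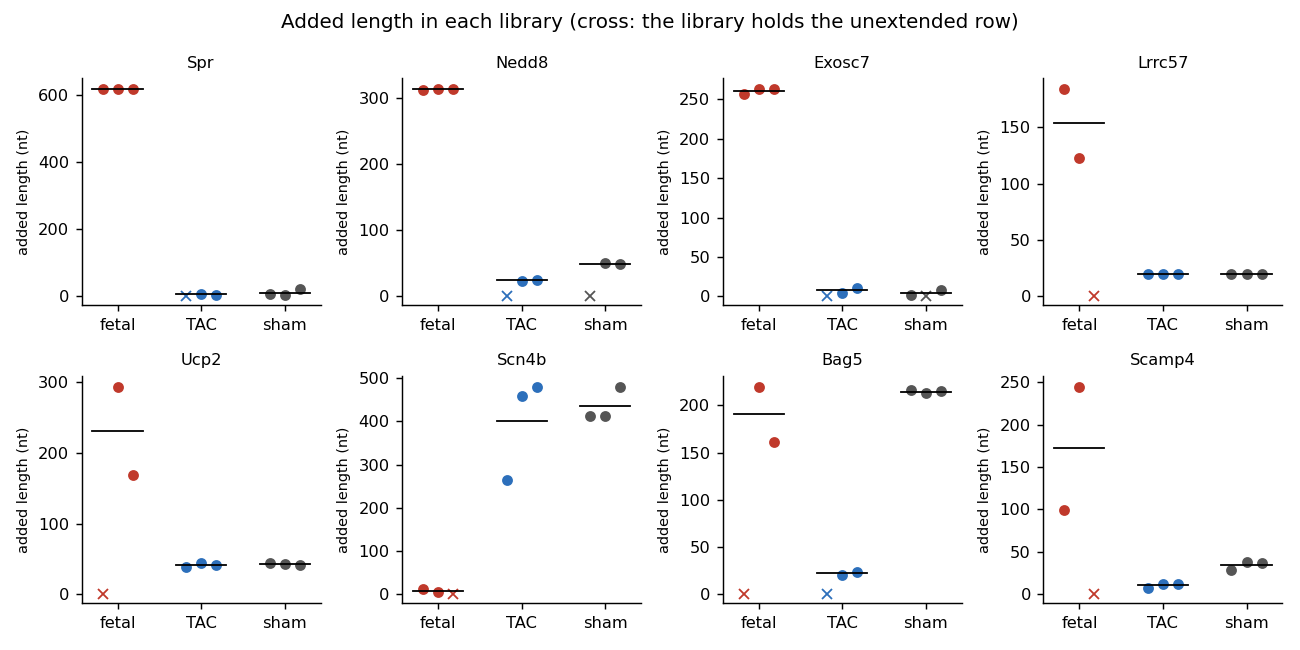
Added length (nt) in each library for 8 members; circles are extended libraries, crosses at 0 are libraries that hold the unextended form, and bars are means over the extended libraries only. Spr, Nedd8 and Exosc7 have 3 fetal values close together and above every adult value, whereas Lrrc57, Ucp2, Scn4b, Bag5 and Scamp4 each have 1 fetal library without an extension.

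Split by adult group, the fetal comparisons gave few further members. Against sham, 5 of 3176 members were called (4 longer and 1 shorter in fetal), where 0.142% of the 3530 transcripts tested were called, 0.113% as longer and 0.0283% as shorter, and 275 had an unadjusted p under 0.05. These were Spr, Nedd8, Lrrc57, Scn4b and ENSRNOT00000020673. Against TAC, 13 of 2690 were called (11 longer and 2 shorter), with 0.464% of 2800 called, 0.393% as longer and 0.0714% as shorter, and 280 at an unadjusted p under 0.05. Of the members longer than in TAC, ENSRNOT00000012836 and ENSRNOT00000066608 share an extended end, reaching chr15:3808304, so they are not independent. Their implied fragments were 0 in fetal, TAC and sham, so these forms had no abundance assigned. Both comparisons use the same fetal libraries. With the replicate block, or with unextended rows counted as 0 nt, limma called none in either.

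Scamp4, a secretory carrier membrane protein, showed a graded pattern. Its 1724 nt transcript at chr7:10612355-10624775 gained 7, 12 and 12 nt in TAC, 29, 38 and 37 nt in sham and 99 and 245 nt in fetal replicates 1 and 2, with no extension in fetal replicate 3. The extended libraries of the 3 groups did not overlap. Implied fragments of the transcript, extended or not, rose in the same order, averaging 46.6 per library in TAC, 215 in sham and 482 in fetal. The part of depth in this order was not tested. Fetal exceeded TAC by a log2 difference of 3.83 (SE 0.45, limma adjusted p = 0.0344; 0.0902 with the replicate block), a call lost under 11 of 17 alternatives, among them total length and leaving out any 1 TAC or any 1 sham library. Utx, the older symbol of an X-linked histone H3 lysine demethylase, gained 82, 80 and 110 nt in TAC, 350, 366 and 395 nt in fetal and 344 and 284 nt in sham replicates 2 and 3, and was unextended in sham replicate 1. TAC was below all other extended libraries, and fetal exceeded TAC by a log2 difference of 2.03 (SE 0.16, limma adjusted p = 0.0116; 0.11 with the replicate block).

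The comparison of TAC with sham asked whether pressure overload moved the ends. Added length was shorter in TAC in 1731 of 2868 members, longer in 1008 and equal in 129, with a median log2 difference of -0.12. The TAC libraries were also the shallowest, and the part of depth in this shift was not tested. One member, Bag5, was called in limma, where 0.0314% of 3180 transcripts tested were called and 173 members had an unadjusted p under 0.05. Every extended TAC library lay below every extended sham library in 398 members and above in 161.

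Bag5 encodes a co-chaperone that binds Hsp70. Its 1701 nt transcript at chr6:136491788-136495130 gained 216, 213 and 215 nt at the 5′ end in sham. TAC replicates 2 and 3 gained 20 and 24 nt and TAC replicate 1 none. Fetal replicates 2 and 3 gained 220 and 161 nt, and fetal replicate 1 none. So every TAC library ended near the annotated start, and every sham library over 200 nt before it. The log2 difference of TAC from sham was -3.23 (SE 0.18, limma adjusted p = 0.0406), and the adjusted p was 0.574 with the replicate block. It was lost under 12 of 18 alternatives, among them leaving out any 1 sham library or fetal replicate 2. The stretch overlapped the neighbouring locus RGD1304719. Bag5 locus values were 18.7, 30.1 and 25.1 rescaled FPKM in TAC and 24.7, 24.2 and 32.1 in sham.

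Members extended in all 9 libraries have no unextended row, so no added length is defined. The whole length of the extended form was therefore compared too, over all members with at least 2 extended libraries in each group compared. Libraries without an extended row were again treated as missing. Over 3971 members tested in this way for fetal against adult, 37 were called in limma (35 longer and 2 shorter in fetal), which is 0.932% of all 3971 tested, and 407 had an unadjusted p under 0.05. With the replicate block on total length, chosen after seeing the data, 18 were called (16 longer and 2 shorter). The 3971 included the 2304 members tested above on added length. Of the 37, 15 had no unextended row, and the others had one. Among those others were Spr, Nedd8, Exosc7, Lrrc57, ENSRNOT00000020673 and ENSRNOT00000026641, already called on added length. In 9 of the 37 the extension overlapped another locus. Fetal lengths lay above all adult lengths in 287 of the 3971 members, in 108 of them by more than 200 nt on average. They lay below in 66, in 12 by more than 200 nt. The number of members separated in this way without a difference was not computed. On total length 20 of 4843 members were called between fetal and sham (0.404% of all 5197 tested) and 28 of 4359 between fetal and TAC (0.627% of all 4469 tested). With the replicate block these were 13 and 15. The members named in the next paragraphs were chosen after their values were seen.

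Cetn3 encodes centrin 3, a calcium-binding protein of centrosomes. Its extended form, on chromosome 2, measured 2986, 2962 and 3060 nt in fetal, 565, 588 and 597 nt in TAC and 633, 721 and 647 nt in sham. Every fetal library thus held a form far longer than every adult form. The log2 difference in length was 2.27 (SE 0.043, limma adjusted p = 1.12e-06; 0.000187 with the replicate block). No other locus was found between its shortest and longest extended ends. Implied fragments averaged 223 in fetal, 69.6 in TAC and 85.5 in sham.

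Fzd1 encodes a Wnt receptor of the Frizzled family. It measured 5527, 5961 and 5847 nt in fetal, 4186, 4176 and 4176 nt in TAC and 4186, 4192 and 4191 nt in sham. The adult lengths lay between 4176 and 4192 nt, below every fetal one. The log2 difference in length was 0.46 (SE 0.022, limma adjusted p = 0.000104; 0.00383 with the replicate block). Locus expression rose in fetal, with 81.1, 84.4 and 78.8 rescaled FPKM against 50.9, 33.5 and 35.4 in sham (log2 change 1.03, SE 0.25, limma adjusted p = 0.00901), as did the implied fragments behind the row, from a mean of 1538 in sham to 6725 in fetal.

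Mrpl34, a protein of the mitochondrial ribosome, measured 1482, 1459 and 1634 nt in fetal, 602, 611 and 614 nt in TAC and 822, 642 and 699 nt in sham. Fetal lay above sham and sham above TAC without overlap (fetal from adult, log2 difference 1.20, SE 0.078, limma adjusted p = 0.000749; 0.0121 with the replicate block). Its level moved the other way. The locus fell from 91.7, 184 and 94.0 rescaled FPKM in sham to 39.7, 32.3 and 26.5 in fetal (log2 change -1.82, SE 0.29, limma adjusted p = 0.00113). Implied fragments behind the row were also fewer in fetal, at 405 against 804 in sham.

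Inha, the inhibin alpha subunit, measured 3337, 3340 and 3311 nt in fetal, 1408, 1447 and 1458 nt in TAC and 1458, 1504 and 1713 nt in sham (log2 difference 1.16, SE 0.049, limma adjusted p = 6.47e-05; 0.00231 with the replicate block). Its fetal rows were listed at a value of 0 in all 3 libraries, against 49.1, 46.1 and 59.0 rescaled FPKM in sham. The long fetal form therefore had a length but no abundance assigned to it. It reached left over ENSRNOT00000020673, the called member whose own fetal form extends right, to chr9:74781547, beyond the leftmost Inha position of chr9:74779281. Reads in that shared stretch cannot be told apart between the pair.

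Pfn1, the actin-binding profilin 1, measured 1710, 2089 and 2077 nt in fetal against 1101 to 1327 nt in the adult libraries (log2 difference 0.65, SE 0.084, limma adjusted p = 0.0249; 0.141 with the replicate block). Ptn, the growth factor pleiotrophin, measured 1680, 1761 and 1822 nt in fetal against 1434 to 1554 nt in adults (log2 difference 0.24, SE 0.029, limma adjusted p = 0.0183; 0.0909 with the replicate block), and its added stretch overlapped another locus. Itm2c, a transmembrane protein, measured 2504, 2913 and 2497 nt in fetal against 1957 to 2196 nt in adults (log2 difference 0.39, SE 0.061, limma adjusted p = 0.0498; 0.153 with the replicate block). In all 3, every fetal library was above every adult library.

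QRSL1_RAT, named for a subunit of the mitochondrial glutamyl-tRNA amidotransferase, had TAC lengths inside or next to the fetal range. It measured 1947, 1965 and 1970 nt in TAC, 1958, 1962 and 1968 nt in fetal and 2722, 2752 and 2752 nt in sham. The 3 sham lengths were above all 6 others. On total length 6 of 4537 members were called as shorter in TAC than in sham and 0 as longer, with 0.144% of 4849 transcripts called and 229 members at an unadjusted p under 0.05. With the replicate block 3 were called. QRSL1_RAT had a log2 difference of -0.48 (SE 0.0062, limma adjusted p = 2.09e-07; 6.8e-06 with the replicate block). The added stretch overlapped ENSRNOT00000000304, and implied fragments averaged 178 in TAC, 402 in fetal and 746 in sham. ENSRNOT00000068105 measured 1565, 1287 and 1029 nt in TAC, 3551, 3584 and 3613 nt in fetal and 3552, 3580 and 3554 nt in sham, with TAC below both other groups (log2 difference from sham -1.48, SE 0.14, limma adjusted p = 0.0165; 0.198 with the replicate block). Its implied fragments were 0 in TAC and in fetal, so those lengths belong to forms with no abundance assigned.

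**Figure D4:**
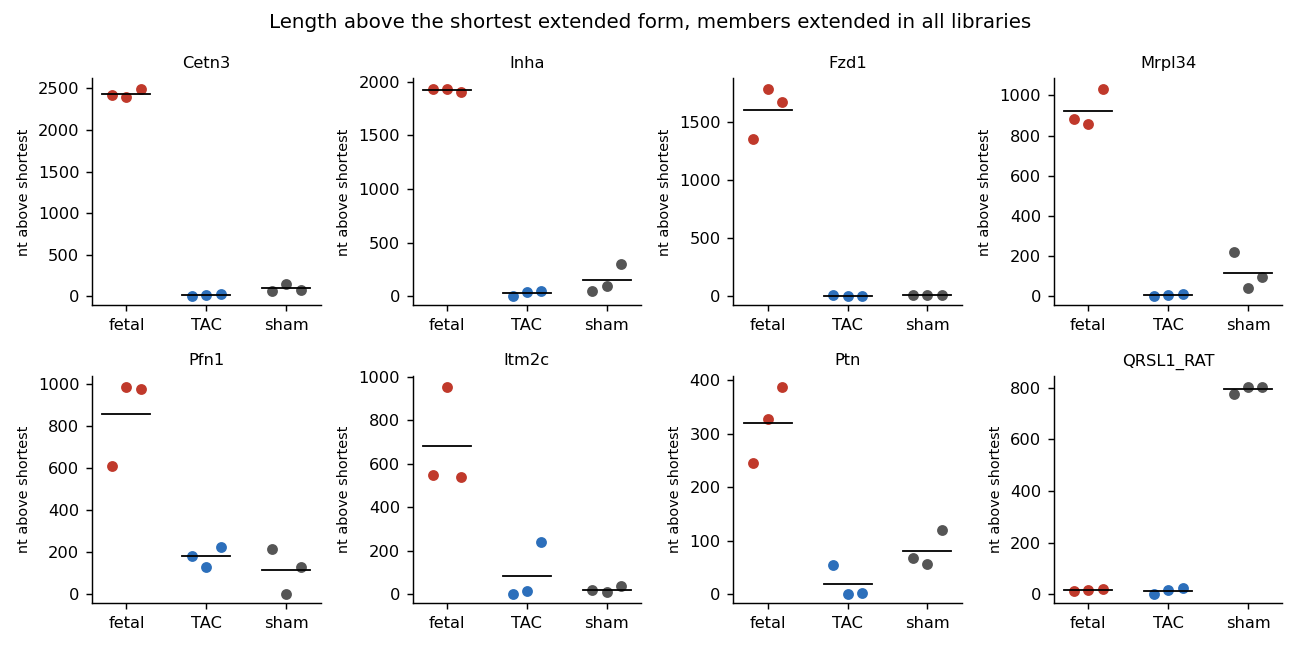
Length above the shortest extended form (nt) in each library, for 8 members extended in all 9 libraries; points are libraries and bars are group means. In 7 members every fetal library lies above every adult library, and in QRSL1_RAT the 3 sham libraries lie above the TAC and fetal libraries.

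The members with the largest added length among those extended in 8 libraries were chosen after values were seen, because members extended in all libraries have no added length. The first, 9330160F10Rik, gained between 1216 and 1240 nt in all 8, and Trim8, a tripartite motif protein, between 1015 and 1035 nt in 7 and 2122 nt in fetal replicate 3. The stretches of both overlapped a neighbouring locus. Implied fragments averaged 0 in fetal, 10.4 in TAC and 79.3 in sham for 9330160F10Rik, and 0, 1.55 and 0 for Trim8. The fetal lengths of both, and the sham lengths of Trim8, thus belong to forms with no abundance assigned. Tgfb1, the fibrosis-related transforming growth factor beta 1, gained 598, 606 and 941 nt in TAC, 616 and 1027 nt in fetal replicates 1 and 3 and 574, 1164 and 1261 nt in sham. The groups overlapped throughout. Nlk, a kinase of the Wnt pathway, gained 441 to 971 nt in TAC, 921 and 1082 nt in fetal and 922 to 1143 nt in sham, and was also extended far in every group. Maf1, a repressor of RNA polymerase III, gained 1497, 1433 and 1277 nt in fetal against 47 to 910 nt in the 5 extended adult libraries, with its stretch over a neighbouring locus.

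In the gene lists, 0 to 6 members a list could be tested for added length between fetal and adult and 0 were called, where 0.347% of all tested transcripts were called, so nothing is read from the count. Values are given for the members with the longest extensions, chosen after they were seen. Flnc, the Z-disc cross-linker filamin C, gained 462, 1009 and 1584 nt in TAC, 259 and 238 nt in fetal replicates 1 and 3 and 3492 and 3441 nt in sham replicates 2 and 3 in ENSRNOT00000027237 (limma adjusted p = 0.143). Vcl, the adhesion protein vinculin, gained 353, 2932 and 2932 nt in fetal, 122 and 123 nt in TAC replicates 2 and 3 and 204 and 234 nt in sham replicates 2 and 3 (limma adjusted p = 0.328). A second Flnc transcript, ENSRNOT00000009644, was extended in all 9 libraries and measured 8540, 11540 and 8519 nt in fetal and 9886, 11773 and 11722 nt in sham, so fetal and sham overlapped in Flnc. All 3 Vcl values in fetal were above the adult ones, with wide spread inside the group.

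Lpl, lipoprotein lipase, gained 121, 96 and 177 nt in fetal, 550, 581 and 379 nt in TAC and 550 and 846 nt in sham replicates 1 and 3 (limma adjusted p = 0.057). Its fetal libraries lay below the extended adult ones, and sham replicate 2 was unextended. Postn, the matrix protein periostin, gained 1286, 1103 and 1282 nt in fetal, 163 nt in TAC replicate 3 and 173 and 1 nt in sham replicates 2 and 3, and could not be tested because only 1 TAC library was extended. Its 3 member transcripts share this end. Rbm20, a splicing regulator of titin, gained 259 nt in fetal replicate 3, 2855 nt in TAC replicate 3 and 1133 to 1838 nt in sham in ENSRNOT00000019746, and was not tested either.

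List medians of added length are given over the members with an unextended row, beside 49 nt over all such members. They were 291 nt for contractile and Z-disc genes, 163 nt for matrix and fibrosis and 173 nt for the fetal and stress programme. They were 52 nt for fatty acid oxidation and supply, 45.5 nt for calcium handling and ion channels, and 45 nt both for the respiratory chain with the tricarboxylic acid cycle and for the cell cycle. They were 21 nt for cleavage and polyadenylation factors, 84 nt for translation, 19.5 nt for signalling proteins and 1133 nt for splicing factors, where 3 Rbm20 transcripts share a locus. These are descriptions of small lists whose members share ends.

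Expression of member loci, the summed value of all rows at a locus, was compared separately from the ends. In bulk ventricle, fewer cells of a type and less RNA per cell cannot be told apart. Of 5828 member loci, 5555 passed the filter, and 983 rose and 1504 fell in fetal against sham in limma at an adjusted p of 0.05. Over all 14186 loci, 45.4% were called, 22.4% as higher and 23% as lower, so the members' share of 44.8% was near the background. With equal library totals in place of median scaling, the split among members was 1036 higher and 1134 lower. That scaling moved their median log2 change from -0.09 to 0.06. In another fit each member transcript was tested by its own reference or extended row, without the other transcripts or assembled new rows of its locus. Member transcripts were then called at 843 loci, and the parts of splitting the locus and of leaving out assembled rows were not told apart.

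Fetal against TAC gave 967 higher and 1504 lower of 5555, against 45.6% called over all loci (22.8% in each direction), and 1120 higher and 1042 lower with equal totals. TAC against sham gave 0 of 5555 in limma, with 224 at an unadjusted p under 0.05 and 0.0141% called over all loci, 0.00705% as higher and 0.00705% as lower.

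The added length and the level were only loosely related. Across the 2237 members with both values, the log2 difference in added length and the log2 change in expression had a Spearman rho of 0.19 and a Pearson r of 0.18. Members share loci and libraries, so this is a description. Where the locus rose in fetal against sham, 77.7% of 349 members were longer in fetal, with a median log2 difference of 0.51. Where it fell, 53.8% of 621 were longer, with a median of 0.05, and where it was not called 67.9% of 1267, with a median of 0.26. The part of the number of fragments in this relation was not tested.

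The counts by list stand beside 22.4% of all loci called as higher and 23% as lower in fetal against sham. All 15 tested member loci of fatty acid oxidation and supply fell in fetal against sham (median log2 change -2.64, against 0.05 over all loci). Lpl fell from a mean of 1255 ± 192 to 56.05 ± 2.84 rescaled FPKM (SD, n = 3; limma adjusted p = 1.26e-06), and Acadm, an acyl-CoA dehydrogenase of the beta-oxidation spiral, from 1231 ± 185 to 115 ± 12.6 (SD, n = 3; limma adjusted p = 3.83e-06). Of 20 loci of the respiratory chain and tricarboxylic acid cycle, 16 fell and 0 rose (median -1.09), among them Uqcrc1 of complex III (log2 change -1.86) and Ndufs3 of complex I (-1.85). Of 11 loci of calcium handling and ion channels, 7 fell and 0 rose (median -0.89), among them Hrc, a calcium-binding protein of the sarcoplasmic reticulum (-3.91).

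Cell cycle loci moved the other way, with 7 of 9 rising and 2 falling (median 2.25). Ccnb1, the mitotic cyclin B1, had a log2 change of 4.48, and Mcm6, part of the replicative helicase, 3.98. Contractile loci were split, with 2 of 7 rising and 3 falling, and Des, the intermediate filament desmin, had a log2 change of -1.65. Matrix loci were split as well, with 4 of 10 rising and 4 falling, and held Postn at 4.40 and Dcn, the proteoglycan decorin, at -3.00. Dcn is also a fibroblast marker, and the summed fibroblast markers lay between 155 and 222 in fetal and between 1030 and 1571 in the adults.

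In the fetal and stress programme 3 of 9 loci rose and 2 fell, in cleavage and polyadenylation 3 of 7 and 1, in splicing 2 of 4 and 0, in translation 1 of 8 and 1, and among signalling proteins 1 of 6 and 1. Over all tested loci of the fetal and stress list, members or not, 8 of 16 rose and 3 fell, with a median log2 change of 1.79 against 0.45 for its member loci. Pabpc1, the cytoplasmic poly(A)-binding protein, had a log2 change of 2.23 and Snrpa, a protein of the U1 spliceosomal particle, 1.79. No locus of any list was called between TAC and sham.

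**Figure D5:**
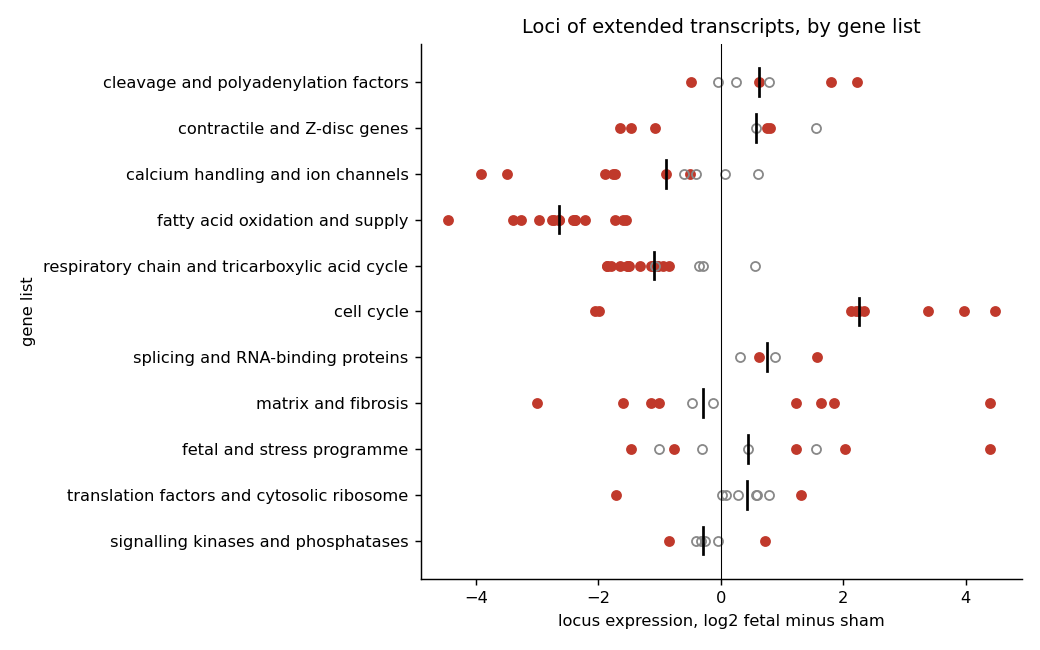
Log2 change of locus expression, fetal minus sham, for member loci of 11 gene lists; filled red points passed the limma test, open points did not, and black bars are list medians. All points of fatty acid oxidation lie below 0, and 7 of 9 cell cycle points lie above it.

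The largest rises among member loci with a symbol were Nt5dc2, Bex1, Bmp7, SNORD12 and Ns5atp9. Nt5dc2, of the 5′-nucleotidase domain family, was at 97.1, 109 and 95.9 rescaled FPKM in fetal, listed at 0 in all 3 TAC libraries and in sham replicates 1 and 2, and at 4.08 in sham replicate 3. Bmp7, a bone morphogenetic protein, was at 67.5, 66.6 and 59.4 in fetal and between 0.316 and 0.838 in sham (log2 change 5.43, limma adjusted p = 2.46e-06). Bex1, a small brain-expressed X-linked protein, was at 427, 613 and 556 in fetal against 7.27 to 11.7 in sham (log2 change 5.59), and its extended form was also longer in fetal, at 849, 821 and 863 nt against 754 to 782 nt in adults (limma adjusted p = 0.0338; 0.141 with the replicate block). SNORD12 had a log2 change of 5.28 and Ns5atp9 of 4.83. SNORD12 is a small nucleolar RNA, and reads of a host gene cannot be told apart from its own here.

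Among the largest falls were Akr1cl1, RT1-Da, Inha and Pla2g2a, where Inha is the locus whose long fetal form was listed at 0 and shares its stretch with ENSRNOT00000020673. Akr1cl1, an aldo-keto reductase relative, was between 0.0849 and 0.222 rescaled FPKM in fetal and at 291, 429 and 302 in sham (log2 change -8.17, SE 0.20, limma adjusted p = 1.28e-07). RT1-Da, a class II histocompatibility chain, had a log2 change of -6.03 and Pla2g2a, a secreted phospholipase, of -5.50. Adult libraries did not overlap fetal ones in any of these 4, and lymphocyte markers, whose part in the RT1-Da value was not tested, summed to between 4.49 and 5.07 in fetal and between 49.2 and 73.4 in the adults.

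Single libraries set some of the highest values. Actc1, cardiac alpha-actin, was at 14023 rescaled FPKM in fetal replicate 1, 135109 in replicate 2 and 18860 in replicate 3, against 20946 to 24107 in sham. Atp5a1, of the ATP synthase, was at 142522 in fetal replicate 2 and at 2042 and 1942 in the other fetal libraries, and Sox17, an endodermal and endothelial transcription factor, at 31895 there and at 3.68 and 4.35 in the others. Neither was called between fetal and sham, and without fetal replicate 2 both fell, with log2 changes of -1.49 for Atp5a1 (limma adjusted p = 0.00358) and -0.97 for Sox17 (limma adjusted p = 0.0176). The remaining loci with the highest means were Mb, Hba-a2, LOC360504, Ldhb, Cryab, Cox8b and Acta1. Mb, the oxygen store myoglobin, fell from 19987, 24769 and 18539 in sham to 649, 1475 and 1206 in fetal (log2 change -4.32, SE 0.40, limma adjusted p = 6.52e-05).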

How the data were processed

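RNA-seq libraries (9) of rat ventricle were analysed; per the submitters' processing notes TopHat 1.3.1, Cufflinks 1.0.3 and Cuffdiff were used on build rn4. The authors deposited FPKM with bounds per transcript and gene, and lengths and positions; the strand was not given in the sources used here. FPKM were on a scale that differs between libraries, so median-of-ratios scaling was applied, with a mean total of 1000000 (rescaled FPKM). Added length was the extended minus the unextended length. Implied fragments came from the width of the FPKM bounds. log2(value + 1) was tested with limma 3.58.1 in R 4.3.3 (trend, all 9 libraries, Benjamini-Hochberg, threshold 0.05), with at least 2 extended libraries per group for lengths and a value of at least 1 in 3 libraries for expression. The code was tested on simulated data. Same-numbered libraries deviated together in locus expression (correlations of 0.16 to 0.52 over 9 pairs) and less in added length (-0.03 to 0.20). The block is thus given beside each named length call. Pairs of unlike number had -0.41 to 0.28 in locus expression (18 pairs), and those between replicates 2 and 3 were all positive. For expression the block called 2621, 0 and 2624 loci and moved no count by over 1.5 times. The members and gene lists were chosen with earlier results of these data known. Named members, with a symbol, were up to 10 called between fetal and adult and up to 5 in each other comparison, the 10 loci with the highest means, the 5 largest rises and 5 largest falls, and up to 4 per list; others are said to be chosen after their values were seen. Genes without a symbol are named by identifier. Some loci that the naming rule would give are not reported here.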

Additional observations from a re-analysis of the deposited data

How the results depend on the processing

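Calls on added length depended on the processing. They numbered 8 for fetal against adult, 5 for fetal against sham, 1 for TAC against sham and 13 for fetal against TAC; all 4 became 0 with the replicate block and with unextended rows counted as 0 nt, an alternative chosen after seeing the data, as were both on implied fragments. Total length gave 37, 20, 6 and 28, and with the replicate block, also chosen after seeing the data, 18, 13, 3 and 15. Adjusting for implied fragments gave 8, 6, 1 and 13. The slope used was only 0.0078 log2 nt per log2 fragment, so this adjustment hardly changed the lengths. Its counts cannot show the part of depth. For fetal against adult, rows with a value above 0 gave 13, implied fragments within 1.5-fold 1 (of 776 members tested), and leaving out a library 5 to 18. For fetal against sham, a pseudocount of 10 gave 9, extension in all 3 libraries of each group 3, rows above 0 8, only the libraries compared 10, replicates 2 and 3 only 8, similar fragments 3, and leaving out a library 0 to 12. For TAC against sham, the pseudocount of 10, all 3 libraries extended, the libraries compared, no variance trend and replicates 2 and 3 gave 0, similar fragments 3, and leaving out a library 0 to 4. For fetal against TAC, all 3 libraries extended gave 1, the libraries compared 4, similar fragments 3, and leaving out a library 4 to 21. For expression, values as deposited called 4766 (4678 higher, 88 lower) and 5201 (5173 higher, 28 lower) loci against sham and TAC. Single member transcripts in place of locus sums gave calls at 843 and 856 loci, and leaving out a library gave 2019 to 2554 and 1995 to 2467. TAC against sham moved from 0 to 1 (libraries compared), 3 (replicates 2 and 3), 13 (single member transcripts) and 0 to 1 (leaving out a library). The cause was not tested. With unextended rows as 0 the difference turned for Ucp2 (fetal against adult -0.23, against TAC -0.21), ENSRNOT00000012836 (-0.90) and ENSRNOT00000066608 (-2.29). As deposited, without the scaling, the median log2 change of member loci from sham to fetal was 2.35. The scale factors were 3.87 to 7.54 in fetal and 0.567 to 1.03 in sham. On that scale Ndufs3 (0.83), Eef1a2 (0.97), Ldhb (0.19), Stat3 (1.79), Des (1.03), Uqcrc1 (0.82) and Cryab (1.61) turned. Without fetal replicate 2, Atp5a1 and Sox17 turned, their ranges over left-out libraries being -1.49 to 1.61 and -0.97 to 5.40. Extension in all 3 libraries of each group gave no value for fetal against adult. Depth was lowest in TAC, and what it limits in the ends was not tested.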
